A study of Mus musculus with 4 samples.

Results

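The genes described here are 46 interferon-stimulated genes, listed by name from what is known of the interferon response, with earlier results of these kidneys known. All 46 had a probe among the 20053 genes named on the array, and 43 were well above background on at least 2 of the 4 arrays, against 16029 of all named genes. Kidney RNA of mice was hybridised to 4 Agilent arrays of 1 colour, and each group held 1 array. The first group was NLRC5-/- kidney after 30 min of ischemia of both kidneys and reperfusion (called knockout, injured), and the next was C57BL/6 wild type kidney after the same operation (wild type, injured). The remaining groups were NLRC5-/- kidney after a sham operation (knockout, sham) and C57BL/6 wild type kidney after a sham operation (wild type, sham). All mice were 8 weeks old per the labels, and the strain given for both genotypes was C57BL/6. The reperfusion time was given as 48 h in the titles of the injured samples and in the design and as 24 h in the descriptions. Which part of Nlrc5 was deleted is not given in the sources used here, and the genotypes are named as the arrays are labelled.

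Interferons are secreted proteins that cells release on sensing viral or misplaced nucleic acid. Type I interferons act through a receptor that leads to a complex of STAT2 and IRF9, which binds the interferon-stimulated response element. Interferon gamma, made mainly by T and NK cells, acts through a receptor of its own and the gamma-activated site, and its targets overlap with those of type I interferon. The genes switched on sense RNA, block viral replication, mark intracellular vacuoles for destruction or damp the pathway. NLRC5 is known as a transactivator of MHC class I genes and has also been described as a regulator of innate immune signalling.

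Of the 46 genes, 35 were matched by symbol in the RefSeq promoter table (GRCm38.p6), which gives 250 bases before and 50 bases after each gene's start. A form of the interferon-stimulated response element, GAAA and a second GAAA with any 2 bases between them, was searched on both strands and was found in 21 of the 35 genes (60%), against 1079 of 27025 genes in the table (3.99%). A form of the gamma-activated site, TTCNNNGAA, was searched likewise and was found in 13 of 35 (37.1%), against 9.55% of all genes. Among genes known to lean to interferon gamma, 7 of 9 held the first motif and 5 of 9 the second, and among the other members 14 of 26 and 8 of 26 did. A match is a description of the letters and does not show that a factor binds there.

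The promoters printed here belong to the 4 members with the largest knockout minus wild type difference in both treatments among those that hold the response element motif (Ifitm3, Gbp3, Ifit1 and Isg15), and to the next GTPase genes by the same order among those matched in the table (Tgtp1 and Igtp). Iigp1 and Gbp6 come before these in that order and were not matched. Capitals mark both motifs on either strand, read 5′ to 3′ on the gene's strand. In GRCm38.p6 they lie at chr7:141010695-141010994 (Ifitm3, minus strand), chr3:142559794-142560093 (Gbp3, plus strand), chr19:34640639-34640938 (Ifit1, plus strand), chr4:156200769-156201068 (Isg15, minus strand), chr11:48992197-48992496 (Tgtp1, minus strand) and chr11:58199306-58199605 (Igtp, plus strand).
Ifitm3: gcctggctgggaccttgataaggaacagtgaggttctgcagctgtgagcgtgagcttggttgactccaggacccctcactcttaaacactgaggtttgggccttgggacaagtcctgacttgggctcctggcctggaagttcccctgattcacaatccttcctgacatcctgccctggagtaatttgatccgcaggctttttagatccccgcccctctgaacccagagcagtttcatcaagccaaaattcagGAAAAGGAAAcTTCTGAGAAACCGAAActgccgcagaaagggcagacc
Gbp3: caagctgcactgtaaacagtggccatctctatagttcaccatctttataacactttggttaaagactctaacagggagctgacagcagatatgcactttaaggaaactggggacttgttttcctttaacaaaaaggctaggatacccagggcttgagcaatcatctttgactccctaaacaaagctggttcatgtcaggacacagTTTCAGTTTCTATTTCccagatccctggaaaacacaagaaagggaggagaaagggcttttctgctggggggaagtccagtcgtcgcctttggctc
Ifit1: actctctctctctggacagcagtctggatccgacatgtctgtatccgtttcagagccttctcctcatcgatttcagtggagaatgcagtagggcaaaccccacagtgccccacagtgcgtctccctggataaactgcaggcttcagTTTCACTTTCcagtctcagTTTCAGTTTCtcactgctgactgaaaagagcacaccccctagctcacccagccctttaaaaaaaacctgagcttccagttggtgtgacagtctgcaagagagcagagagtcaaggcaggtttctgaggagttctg
Isg15: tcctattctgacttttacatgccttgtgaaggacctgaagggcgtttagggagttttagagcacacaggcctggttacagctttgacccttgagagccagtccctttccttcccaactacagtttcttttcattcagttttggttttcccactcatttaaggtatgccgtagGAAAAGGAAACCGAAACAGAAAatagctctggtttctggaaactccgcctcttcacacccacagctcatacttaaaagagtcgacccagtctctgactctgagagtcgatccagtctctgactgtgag
Tgtp1: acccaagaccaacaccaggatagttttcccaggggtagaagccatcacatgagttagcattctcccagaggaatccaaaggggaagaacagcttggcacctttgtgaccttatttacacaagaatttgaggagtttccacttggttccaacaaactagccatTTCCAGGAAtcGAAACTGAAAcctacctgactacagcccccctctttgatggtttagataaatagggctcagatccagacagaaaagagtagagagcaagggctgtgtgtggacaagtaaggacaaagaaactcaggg
Igtp: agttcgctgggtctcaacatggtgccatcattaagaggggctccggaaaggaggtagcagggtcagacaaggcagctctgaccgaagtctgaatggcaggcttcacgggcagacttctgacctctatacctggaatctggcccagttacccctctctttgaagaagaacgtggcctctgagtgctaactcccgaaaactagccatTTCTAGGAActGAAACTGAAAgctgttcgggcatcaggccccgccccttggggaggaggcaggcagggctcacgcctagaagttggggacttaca

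Isg15 held 3 overlapping copies of the response element motif in 1 run of capitals, with first bases at -78, -72 and -66 from the start. Gbp3 held 2 overlapping copies at -45 and -39, and Ifit1 held 2 separate copies at -104 and -85. In Ifitm3 both copies lay after the start, at 3 and 20, and the second shared bases with a TTCNNNGAA match at 14. Tgtp1 and Igtp each held a TTCNNNGAA match followed after a gap of a pair of bases by a response element match. This joint arrangement was noticed in the printed sequences and then counted: 5 of 27025 genes held it, and 3 of these were members (Igtp, Irgm2 and Tgtp1). The others were Tgtp2, a near-identical copy of Tgtp1, and Gm12185. The promoters of Igtp and Irgm2 share an unbroken run of 61 bases.

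The values below are log2 of the processed signal minus log2 of the array's 75th percentile, so that 0 is a probe as bright as that percentile and 1 unit is a factor of 2. Each gene is read by its brightest probe. Levels are compared for 1 gene across arrays and not between genes. A difference is counted where it reaches 2-fold. With 1 array a group a single pair of arrays has no replicate check and no p-value. Probes spotted several times on each array gave an SD of the log2 difference between 0.126 and 0.170 for a pair of arrays, which covers the spotting and not the animals.

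Some facts of the arrays touch every comparison. Both knockout arrays lay on 1 slide with 1 scan and both wild type arrays on another, so genotype and slide cannot be told apart, while sham and injured arrays of a genotype shared a slide. The wild type injured array was the dimmest, with a 75th percentile of 181.7 signal units against 362.2 to 465.4 on the others, and 67.5% of its spots were well above background against 72.0% to 74.9%. The knockout sham array had a female pattern (Xist at 5.20, and the Y-linked genes Ddx3y, Eif2s3y, Kdm5d and Uty not well above background), whereas the other 3 had a male pattern, so each comparison with that array also compares the sexes. The difference between the injured arrays does not use the knockout sham array, and the difference between the sham arrays does not use the wild type injured array. The Nlrc5 probe (A_52_P382107, chromosome 8, 97044928 to 97044987, mm9) read -3.62 and -3.34 on the knockout and wild type injured arrays and -3.77 and -4.08 on the knockout and wild type sham arrays. It lay well above background on all 4, and a probe outside the deleted part would check nothing. Of the proximal tubule markers that define kidney tissue, 12 of 12 were well above background on each array.

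Most of the interferon-stimulated genes were higher on the knockout arrays, in sham and in injured kidneys. Between the injured arrays 30 of 43 members were at least 2-fold higher in knockout, against 9.02% of 15557 genes with a value, and 1 was at least 2-fold lower, against 7.44%. Between the sham arrays 27 of 43 were at least 2-fold higher in knockout, against 3.63% of 15959 genes, and 0 were 2-fold lower, against 3.03%. The median difference of the members, knockout minus wild type, was 1.74 in injured kidneys and 1.11 in sham kidneys, beside 0.03 and 0.03 for all genes. In 23 of 43 members the difference reached 2-fold in both treatments, against 124 of 15488 genes (0.801%), and no member was 2-fold lower in both, against 0.529%. With normexp background correction 23 of 42 members were 2-fold higher between the injured arrays, against 763 of 14951 genes. Between the sham arrays 18 of 43 were, against 207 of 15940 genes. In both treatments 15 members reached 2-fold with normexp, where all genes were not counted. With median scaling 30, 19 and 18 members were 2-fold higher in injured kidneys, in sham kidneys and in both.

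**Figure D1:**
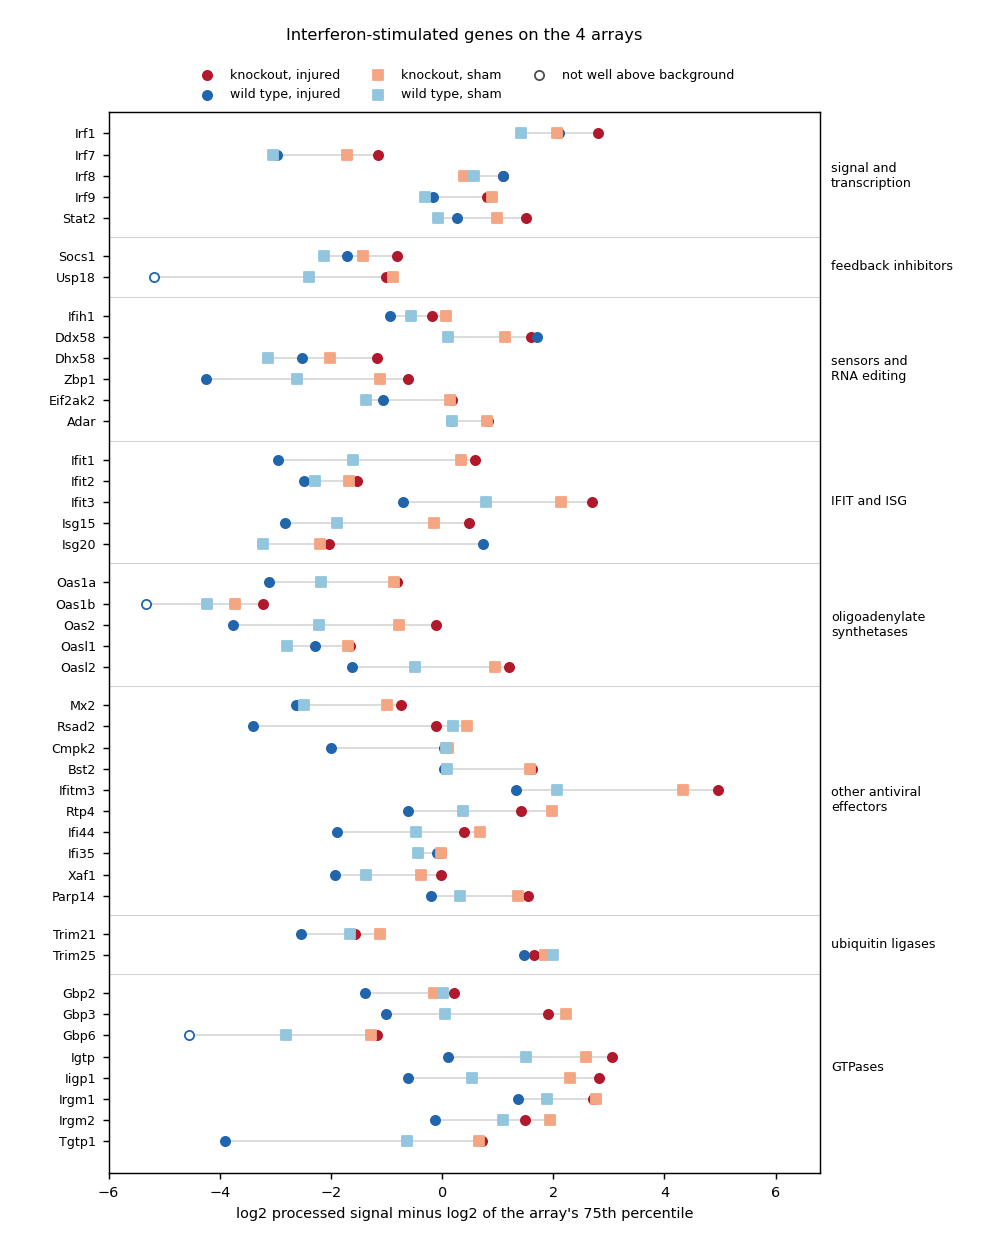
Level of each of the 43 interferon-stimulated genes on the 4 arrays, grouped by role. The horizontal axis is log2 processed signal minus log2 of the array's 75th percentile, red marks knockout and blue wild type, circles injured and squares sham kidneys, each point is 1 array, and open circles were not well above background. Of the 40 genes above background on all 4 arrays, 27 were highest in the injured knockout and 28 were lowest in the injured wild type.

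**Figure D2:**
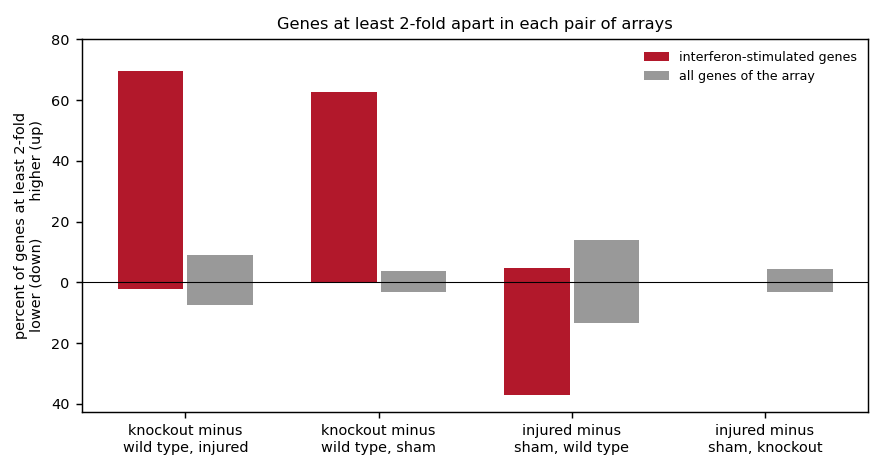
Percent of genes at least 2-fold higher (up) or lower (down) in each pair of arrays, for the interferon-stimulated genes (red) and for all genes of the array with a value (grey). Between the injured arrays 30 of 43 members were higher in knockout, and between the knockout arrays 0 of 43 were 2-fold apart.

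The order of the 4 arrays was much alike from gene to gene. Of the 40 members above background on all 4 arrays, 27 were highest on the knockout injured array and 10 on the knockout sham array, and 2 were highest on the wild type injured array (Ddx58 and Isg20) and 1 on the wild type sham array (Trim25). By comparison 24.13%, 31.87%, 15.18% and 28.82% of all genes were highest on the knockout injured, wild type injured, knockout sham and wild type sham arrays. The lowest array was the wild type injured one for 28 members, the wild type sham one for 11 and the knockout sham one for 1. Of all genes, 32.22%, 31.85% and 14.35% were lowest on the wild type injured, wild type sham and knockout sham arrays.

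An additive limma fit of genotype and treatment over all 4 arrays, with 1 residual degree of freedom, called 0 of 16029 genes for genotype at an adjusted p of 0.05 (Benjamini-Hochberg). No gene had an adjusted p below 0.777. Without adjustment, p was under 0.05 for 29 members of 43 that were higher and 0 that were lower in knockout, against 3.31% of genes higher and 2.15% lower. With normexp background correction, fitted without spots that carry an outlier flag, limma called 139 genes at an adjusted p of 0.05, and 13 of these were members. Each group held 1 sample, so such p-values reflect the spread among these 4 samples, part of which may be technical, and a true difference between the injury responses counts as error in this fit.

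Of the transcription factors and signal transducers of the pathway, Irf7, Irf9 and Stat2 had the larger genotype differences by the brightest probe. Between the injured arrays 2 of 5 were at least 2-fold higher in knockout, and between the sham arrays 3 of 5. Irf7, which amplifies type I interferon production, read -1.15 in knockout and -2.98 in wild type injured kidneys, and -1.71 in knockout and -3.03 in wild type sham kidneys. Both knockout values lay above both wild type values, with differences of 1.83 and 1.33 (0.58 and 0.71 with normexp). Stat2, a component of the type I interferon transcription complex, read 1.51 and 0.26 in knockout and wild type injured kidneys, and 0.99 and -0.08 in knockout and wild type sham kidneys, differences of 1.25 and 1.08 (1.07 and 0.92 with normexp). Irf9, its DNA-binding partner, read 0.82 and -0.16 in knockout and wild type injured kidneys, and 0.89 and -0.31 in knockout and wild type sham kidneys. Its differences were 0.98 and 1.20, on either side of the 2-fold mark. With the mean over its probes the Irf9 differences were 0.42 and 0.79. The dimmer Irf9 probe in that mean was not well above background on either wild type array.

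By the brightest probe, Irf1 and Irf8 had the highest differences after injury among these 5, in knockout and in wild type. Both respond to interferon gamma among other signals. Irf1 read 2.81 in knockout and 2.11 in wild type injured kidneys, and 2.06 in knockout and 1.42 in wild type sham kidneys. It was thus 0.70 and 0.64 higher in knockout, and 0.75 and 0.69 higher after injury in knockout and in wild type. Irf8, a factor of myeloid and dendritic cells, read 1.10 and 1.09 in knockout and wild type injured kidneys, and 0.39 and 0.58 in knockout and wild type sham kidneys. Its genotype differences were 0.01 in injured and -0.19 in sham kidneys, the lowest of the 5. Dimmer probes of both genes, well above background on all 4 arrays, did not share the rise after injury in full. The dimmer Irf8 probe stood at 0.08 in knockout and -0.98 in wild type after injury, and the dimmer Irf1 probe at -0.03 and 0.26.

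Both feedback inhibitors were higher on the knockout arrays. Usp18, which removes ISG15 from proteins and blocks the type I receptor, read -1.01 in knockout injured kidney, while in wild type injured kidney its signal was not well above background. It read -0.88 in knockout and -2.39 in wild type sham kidneys. The injured difference was at least 3.73 (at least 13.3-fold) and the sham difference 1.51, with 1.14 in each under normexp. Socs1, which inhibits the receptor-bound kinases, read -0.81 and -1.70 in knockout and wild type injured kidneys, and -1.42 and -2.12 in knockout and wild type sham kidneys. Its differences of 0.90 and 0.70 (0.30 and 0.51 with normexp) did not reach 2-fold.

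Among the 6 sensors and RNA-editing genes, 3 were at least 2-fold higher in knockout between the injured arrays and 4 between the sham arrays. Zbp1, a sensor of Z-form nucleic acid that can start necroptosis, read -0.62 in knockout and -4.24 in wild type injured kidneys, and -1.12 in knockout and -2.61 in wild type sham kidneys. Its differences were 3.62 and 1.49, and 1.33 between the injured arrays with normexp. Dhx58, which encodes the RIG-I-like receptor LGP2, read -1.18 and -2.53 in knockout and wild type injured kidneys, and -2.02 and -3.13 in knockout and wild type sham kidneys. Its differences of 1.35 and 1.11 were 0.46 and 0.64 with normexp. Eif2ak2, the kinase PKR that halts translation on double-stranded RNA, stood 1.25 and 1.51 higher in knockout (0.78 and 1.16 with normexp). Ifih1, which encodes MDA5, stood 0.76 and 0.62 higher, and Adar, which edits adenosine in double-stranded RNA, 0.66 and 0.64.

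Ddx58, which encodes RIG-I, had another order. It read 1.60 in knockout and 1.71 in wild type injured kidneys, and 1.14 in knockout and 0.10 in wild type sham kidneys. Only the wild type sham array was low, so the genotype difference was 1.03 in sham and -0.11 in injured kidneys. Its other probes above background on all 4 arrays stood at 0.17 and 0.02 between the injured arrays, the opposite sign to the brightest probe.

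The IFIT and ISG15 genes held several of the largest differences. Ifit1, which binds RNA lacking the host cap and whose promoter with separate motif copies is printed above, is read by the probe A_51_P327751 (chromosome 19, 34723796 to 34723855, mm9). It read 0.60 in knockout and -2.95 in wild type injured kidneys, and 0.34 in knockout and -1.61 in wild type sham kidneys. The difference was 3.54 (11.7-fold) in injured and 1.95 (3.87-fold) in sham kidneys, and 2.07 and 1.63 with normexp. Isg15, the ubiquitin-like modifier, read 0.48 and -2.82 in knockout and wild type injured kidneys, and -0.14 and -1.90 in knockout and wild type sham kidneys. Its differences were 3.30 and 1.76, and 2.02 and 1.36 with normexp. Ifit3, a partner of IFIT1, stood 3.39 higher in knockout injured and 1.35 higher in knockout sham kidneys. Mouse has a close copy of Ifit3, and signal from the copies cannot be told apart here. Ifit2 stood 0.95 and 0.61 higher (0.29 and 0.36 with normexp).

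Isg20, an RNA exonuclease, was the exception in this group and in the whole list. It read -2.04 in knockout and 0.74 in wild type injured kidneys, and -2.20 in knockout and -3.23 in wild type sham kidneys. The wild type injured array stood far above the other 3, and the genotype difference was -2.77 in injured and 1.03 in sham kidneys (-2.23 and 0.57 with normexp). Its second probe read -3.67 and -1.27 in knockout and wild type injured kidneys, and -3.85 and -4.86 in knockout and wild type sham kidneys, the same order.

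Active oligoadenylate synthetases make a short messenger that activates the ribonuclease RNase L. Of the 5 genes of this group that passed, 4 were at least 2-fold higher in knockout in each treatment, and these were not the same 4. Oas1a, Oas2 and Oasl2 were so in both treatments. Oas1b was so only between the injured arrays, as a bound, and Oasl1 only between the sham arrays. Oas2 read -0.11 in knockout and -3.76 in wild type injured kidneys, and -0.78 in knockout and -2.21 in wild type sham kidneys. Its differences were 3.65 and 1.43, and 1.54 and 0.88 with normexp. Oas1a stood 2.31 and 1.32 higher (0.89 and 0.87 with normexp), and Oasl2, an oligoadenylate synthetase-like gene, 2.83 and 1.44. Oasl1, which in mouse is known to restrain Irf7 translation, read -1.65 and -2.28 in knockout and wild type injured kidneys, and -1.69 and -2.79 in knockout and wild type sham kidneys, differences of 0.62 and 1.11 (0.07 and 0.72 with normexp). Oas1b was not well above background on the wild type injured array, which gives at least 1.52 between the injured arrays, beside 0.52 between the sham arrays. Oas3 was above background on the knockout sham array alone and Oas1g on none, and neither is counted.

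Of the other 10 antiviral effectors that passed, 9 were at least 2-fold higher in knockout between the injured arrays and 6 between the sham arrays. Ifitm3, a membrane protein that blocks viral entry and whose promoter holds both motifs, is read by the probe A_51_P128876 (chromosome 7, 148195591 to 148195650, mm9). It read 4.96 in knockout and 1.33 in wild type injured kidneys, and 4.33 in knockout and 2.08 in wild type sham kidneys. The differences were 3.63 (12.4-fold) and 2.25 (4.77-fold), and 3.57 and 2.25 with normexp, so both differed little between the background corrections. In the limma fit Ifitm3 was 2.94 higher in knockout with an SE of 0.45 (adjusted p = 0.777).

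Bst2, or tetherin, which holds budding virus at the cell surface, read 1.62 and 0.03 in knockout and wild type injured kidneys, and 1.59 and 0.09 in knockout and wild type sham kidneys. Its differences of 1.59 and 1.5 were the closest to each other among the 10 genes with the largest difference in both treatments, and sham and injured values of a genotype hardly differed. Rtp4, an interferon-induced chaperone of receptors, read 1.41 and -0.61 in knockout and wild type injured kidneys, and 1.97 and 0.38 in knockout and wild type sham kidneys, differences of 2.02 and 1.59. Mx2, a dynamin-like GTPase that restricts viruses, read -0.74 and -2.62 in knockout and wild type injured kidneys, and -0.98 and -2.49 in knockout and wild type sham kidneys. Its differences of 1.88 and 1.5 were 0.78 and 0.99 with normexp. Mx1 was not well above background on any array.

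Rsad2, or viperin, and Cmpk2, a neighbouring nucleotide kinase gene on chromosome 12, formed a pair of their own. Rsad2 read -0.11 in knockout and -3.40 in wild type injured kidneys, and 0.45 in knockout and 0.20 in wild type sham kidneys. Cmpk2 read 0.04 and -2.0 in knockout and wild type injured kidneys, and 0.11 and 0.07 in knockout and wild type sham kidneys. For both, 3 arrays lay close together and the wild type injured array stood alone, so the genotype difference was 3.28 and 2.04 between injured arrays and 0.25 and 0.04 between sham arrays. With normexp the injured differences were 1.46 and 1.08. A second Rsad2 probe had the opposite sign between the sham arrays.

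The remaining effectors of unknown or varied function stood as follows. Ifi44 stood 2.29 and 1.14 higher in knockout injured and sham kidneys. With normexp these Ifi44 differences were 1.59 and 1.03, and with the mean over its probes 3.48 and 0.86. The dimmer Ifi44 probe in that mean was not well above background on the wild type injured array. Xaf1, an apoptosis-promoting factor, stood 1.92 and 0.99 higher (1.05 and 0.66 with normexp), and Parp14, an ADP-ribosyltransferase, 1.74 and 1.04. Ifi35 read -0.02 and -0.09 in knockout and wild type injured kidneys, and -0.03 and -0.44 in knockout and wild type sham kidneys, with differences of 0.07 and 0.41. The ubiquitin ligase genes did not reach 2-fold. Trim21, an antibody receptor inside cells, read -1.57 and -2.54 in knockout and wild type injured kidneys, and -1.11 and -1.66 in knockout and wild type sham kidneys, and its injured difference of 0.97 was 0.17 with normexp. Trim25, which acts on RIG-I, read 1.66 and 1.47 in knockout and wild type injured kidneys, and 1.84 and 2.0 in knockout and wild type sham kidneys, the only member highest in wild type sham.

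The interferon-inducible GTPases, which attack the vacuoles of intracellular microbes and are known to answer to interferon gamma, were the role group in which every member that passed was at least 2-fold higher in knockout between the injured arrays. This held for 8 of 8, with a median difference of 2.93, and between the sham arrays 5 of 8 were at least 2-fold higher, with a median of 1.19. Gbp3, a guanylate-binding protein, is read by the probe A_51_P165244 (chromosome 3, 142236072 to 142236131, mm9). It read 1.91 in knockout and -1.0 in wild type injured kidneys, and 2.22 in knockout and 0.05 in wild type sham kidneys, differences of 2.91 and 2.17. In the limma fit Gbp3 had the lowest unadjusted p of the members, at 0.0024, with a difference of 2.54, an SE of 0.32 and an adjusted p of 0.777. Iigp1, an immunity-related GTPase, read 2.82 and -0.61 in knockout and wild type injured kidneys, and 2.29 and 0.54 in knockout and wild type sham kidneys, differences of 3.43 and 1.76.

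Read by its brightest probe and the processed signal, Tgtp1 had the largest difference of all members between the injured arrays. It read 0.72 in knockout and -3.91 in wild type injured kidneys, and 0.66 in knockout and -0.64 in wild type sham kidneys. The differences were 4.63 and 1.30, and the first was 2.43 with normexp, where Ifitm3 stood higher at 3.57. With the mean over probes Tgtp1 stood at 2.94, below Ifitm3 at 3.63. Tgtp1 has a near-identical copy, Tgtp2, and the array may read both. A second, dimmer Tgtp1 probe read -3.03 and -4.28 in knockout and wild type injured kidneys, and -3.81 and -4.35 in knockout and wild type sham kidneys. The 2 probes share the direction between genotypes and differ in size.

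Gbp6 read -1.17 in knockout injured kidney, did not lie well above background on the wild type injured array, and read -1.28 in knockout and -2.81 in wild type sham kidneys. Its difference was at least 3.39 between the injured arrays (0.88 with normexp) and 1.53 between the sham arrays. Igtp stood 2.95 and 1.08 higher in knockout injured and sham kidneys, Irgm2 1.62 and 0.85, and Irgm1, a regulator of the other family members, 1.34 and 0.88. Gbp2 read 0.22 and -1.39 in knockout and wild type injured kidneys, and -0.15 and 0.01 in knockout and wild type sham kidneys. It differed by 1.61 between the injured arrays and by -0.16 between the sham arrays.

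**Figure D3:**
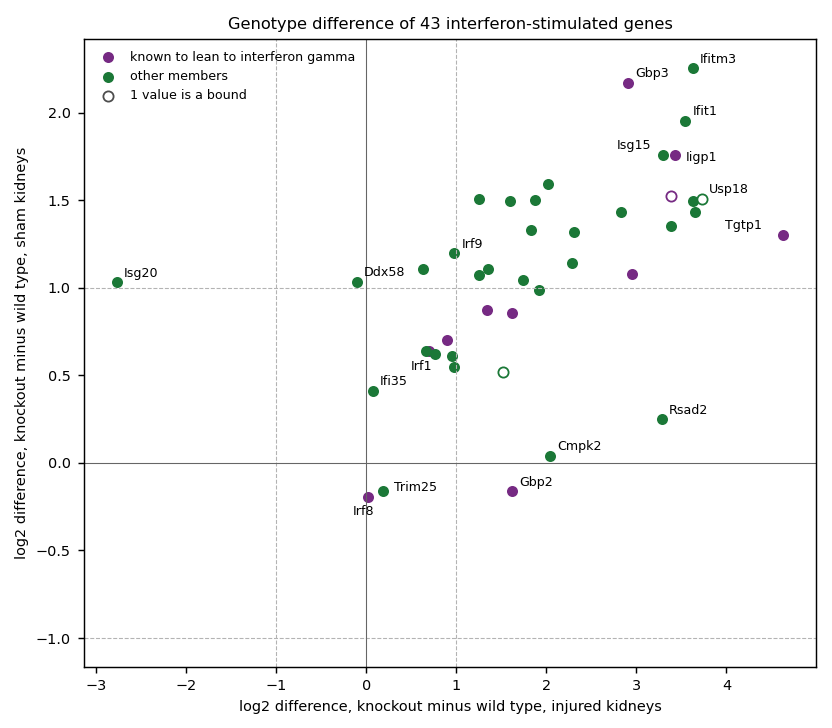
Log2 difference, knockout minus wild type, of each of the 43 members, with injured kidneys on the horizontal axis and sham kidneys on the vertical axis. Each point is 1 gene, violet marks members known to lean to interferon gamma, open circles are bounds and dashed lines mark 2-fold. In the upper right corner 23 members are 2-fold higher in both, Isg20 lies alone on the left, and Rsad2, Cmpk2 and Gbp2 are 2-fold higher in injured kidneys and near 0 in sham kidneys.

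Members that lean to interferon gamma and the other members both were higher in knockout. Of 11 that lean to gamma, 8 were at least 2-fold higher in knockout between the injured arrays and 5 between the sham arrays, with medians of 1.62 and 0.88. Of the other 32, 22 were at least 2-fold higher in each treatment, with medians of 1.78 and 1.13. By promoter, 15 of the 19 members with a value that hold the response element motif were at least 2-fold higher in knockout between the injured arrays and 12 between the sham arrays, and of the 14 that do not hold it 5 and 6 were. Their medians were 1.62 and 1.08 with the motif and 0.82 and 0.81 without it, given as a description with no test.

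The genes upstream of the members were also counted. Of 27 ligand, receptor, kinase, sensor and adaptor genes 22 passed. Between the injured arrays 2 of these were at least 2-fold higher in knockout, against 9.02% of all genes, and 1 was 2-fold lower, against 7.44%. Between the sham arrays 0 were 2-fold apart, against 3.63% of all genes higher and 3.03% lower. The median differences of this list were 0.02 and 0.03, beside 0.03 and 0.03 for all genes, so as a list it stood close to all genes. The interferon genes Ifnb1, Ifng, Ifna4, Ifnk and Ifne were not well above background on any array. Cgas, the DNA sensor, stood 1.13 and 0.90 higher in knockout injured and sham kidneys, and Tlr7, a receptor for single-stranded RNA that was not well above background on the wild type injured array, at least 1.52 and 0.77. Ifngr2, a chain of the interferon gamma receptor, stood at -1.24 and -0.75.

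The same was done for interferon-induced genes outside the list, of which 32 passed, with median differences of 1.04 between the injured and 0.53 between the sham arrays. Of these, 16 were at least 2-fold higher and 1 was 2-fold lower in knockout between the injured arrays, and 5 were higher and 1 was lower between the sham arrays. Among those well above background on both injured arrays, the largest differences were Ifi27l2a at 4.15, the Schlafen gene Slfn5 at 3.28 and the DNA sensor gene Ifi204 at 2.86. Apol9a and Cxcl9 were not well above background on the wild type injured array, and their differences were at least 2.75 and 2.46. Cxcl9, a chemokine gene, was lower in knockout sham kidney, at -1.92, while Apol9a stood 1.32 and Gbp4 1.13 higher there.

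Markers of several cell types differed between the injured arrays in the same direction as the members. Endothelial markers were at least 2-fold higher in knockout for 9 of 10 genes between the injured arrays and for 0 of 10 between the sham arrays. Their summed scaled signal, in multiples of the 75th percentile, was 53.9 in knockout and 14.6 in wild type injured kidneys, and 69.3 in knockout and 47.8 in wild type sham kidneys. Macrophage markers were 2-fold higher in knockout for 6 of 9 genes and 2-fold lower for 1 between the injured arrays, and higher for 1 of 9 between the sham arrays, with summed signals of 6.57 and 2.31 in injured and 5.17 and 4.57 in sham kidneys, knockout before wild type. Proximal tubule markers were 2-fold higher for 7 of 12 genes between the injured arrays and for 0 of 12 between the sham arrays. Pan-leukocyte markers were 2-fold higher in knockout for 3 of 4 genes between the injured arrays. Of 4 dendritic cell markers that passed, Itgax and Zbtb46 were 2-fold higher there, at 2.96 and 1.43, while Clec9a and Siglech were not well above background on any array. Of 8 T and NK cell markers that passed, 1 was 2-fold higher (Cd8a, by at least 1.08), and Ncr1 of NK cells and Ms4a1 and Pax5 of B cells were not well above background on any array. In whole tissue, fewer cells of a type and less RNA per cell cannot be told apart, and the part of these markers in the differences of the members between the injured arrays was not tested. Between the sham arrays 0 of 5 pan-leukocyte markers were 2-fold higher in knockout, and the 10 endothelial markers all stood above 0, with a median of 0.61. Other lists lay further apart in that pair. Erythroid markers were 2-fold higher in knockout for 2 of 3 genes (median 3.05), adipocyte markers 2-fold lower for 2 of 3 (median -6.44) and urothelial markers 2-fold lower for 4 of 5 (median -1.58). The part of these markers in the sham differences was not tested either.

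Within the wild type slide, more members were lower than higher after injury. Of 43 members 16 were at least 2-fold lower in injured than in sham kidney, against 13.3% of 15479 genes, and 2 were at least 2-fold higher, against 14.0%, with a median of -0.57 beside -0.02 for all genes. Rsad2 had the most negative difference, at -3.60, followed by Tgtp1 at -3.27. Usp18 stood at -2.35 as a bound, and Cmpk2 stood at -2.07. Of the 8 GTPases 7 were at least 2-fold lower. The 2 members that were higher were Isg20, at 3.97, and Ddx58, at 1.61. Irf1 and Dhx58 came next at 0.69 and 0.60. These counts depended on the background correction: with normexp 6 of 41 members were 2-fold lower, against 1337 of 14972 genes. The median of the members was then -0.06, with Rsad2 at -1.78, Tgtp1 at -1.22 and Usp18 at -0.11. The second Tgtp1 probe did not share the direction of the brightest probe here, as it stood at 0.07. Endothelial markers were 2-fold lower for 8 of 10 genes, macrophage markers for 6 of 9 and proximal tubule markers for 10 of 12 in the same pair. The macrophage markers Cd68 and Itgam were 2-fold higher, at 2.80 and 2.07. Neutrophil markers were also 2-fold higher, for 3 of 4 genes (median 1.32). Urothelial markers were 2-fold lower for 5 of 5 genes (median -3.42), adipocyte markers for 3 of 3 (median -6.54) and erythroid markers for 3 of 3 (median -1.72). The part of these markers in the result was not tested.

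Within the knockout slide, the members stood nearly level between injured and sham kidney. None of 43 was 2-fold apart in either direction, against 4.33% of 15989 genes higher and 3.17% lower, and the median was 0.17. The highest differences were Dhx58 at 0.85, Irf1 at 0.75, Irf8 at 0.72 and Oas2 at 0.67. The most negative were Rsad2 at -0.56, Rtp4 at -0.56, Trim21 at -0.46 and Irgm2 at -0.45. At a threshold of 1.5-fold 7 members were higher, with no count over all genes at that threshold. The sham array of this pair had the female pattern, and the injured array the male pattern. Erythroid markers were 2-fold lower after injury for 2 of 3 genes in this pair, with a median of -5.90. Neutrophil markers were 2-fold lower for 3 of 4 genes (median -1.17) and collecting duct markers for 3 of 5 (median -1.17). The part of these markers in the knockout response was not tested.

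**Figure D4:**
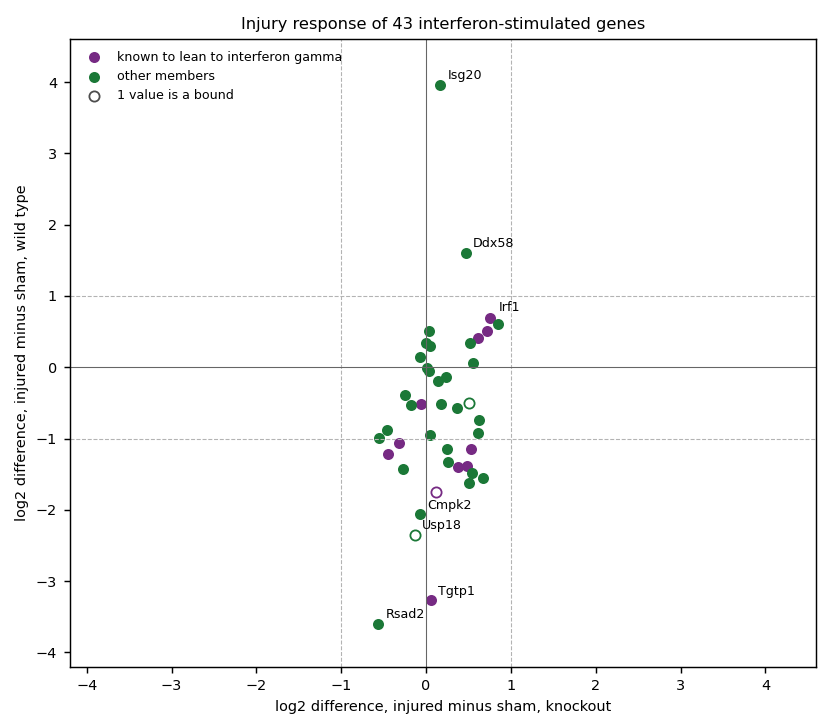
Injured minus sham log2 difference of each of the 43 members, with knockout on the horizontal axis and wild type on the vertical axis, drawn to the same scale. Each point is 1 gene, violet marks members known to lean to interferon gamma, open circles are bounds and dashed lines mark 2-fold. All members lie within 2-fold on the knockout axis, while on the wild type axis they run between -3.60 for Rsad2 and 3.97 for Isg20.

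No member was 2-fold apart in both genotypes after injury, against 2.56% of 15449 genes higher and 1.69% lower in both. The limma fit for injury called 0 of 16029 genes at an adjusted p of 0.05, the lowest adjusted p being 0.395, and without adjustment at p under 0.05 it had 0 members higher and 0 lower, against 5.22% and 6.29% of genes. With normexp fitted without flagged spots it called 981 genes, 2 of them members.

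The difference between the responses, knockout minus wild type, is known for the 40 members above background on all 4 arrays. It was at least 2-fold for 14 of them in the positive direction, against 9.95% of 14559 genes, and for 2 in the negative direction, against 9.29%, with a median of 0.48 beside -0.01 for all genes. The highest were Tgtp1 at 3.33, Rsad2 at 3.03, Oas2 at 2.22 and Zbp1 at 2.13, which with normexp were 1.25, 1.22, 0.65 and 0.22. The most negative were Isg20 at -3.80, Ddx58 at -1.14, Oasl1 at -0.48 and Ifi35 at -0.34. These differences use each of the 4 arrays once, including the dimmest one and the one of female pattern.

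In wild type, the largest injury responses of the upstream genes were in Sting1, Ifngr1 and Ifnlr1. Sting1, the adaptor of DNA sensing, stood 1.37 higher after injury in knockout and 2.06 in wild type. Ifngr1 and Ifnlr1, receptor chains for interferon gamma and lambda, stood 1.37 and 1.29 higher after injury in wild type, and 0.49 and 0.50 in knockout. In knockout the next largest after Sting1 were Cgas at 0.86 and Tlr3 at -0.82. Of the other interferon-induced genes Cxcl10, a chemokine for T cells, stood 1.89 higher after injury in knockout and 0.05 in wild type, and Ifi27l2a stood at 1.52 in knockout and at -3.01 in wild type.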

How the data were processed

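Total RNA from kidney was labelled with Cy3 and hybridised to 1-colour Agilent arrays, per the labels' protocols. The deposited spot intensity (processed signal) was background-subtracted and detrended with Agilent's Feature Extraction software. The file headers give its version as 10.7.3.1, whereas 9.1 is the version per the submitters' processing notes. The authors' deposited value table holds log2 values of the same arrays, whose normalization is not given in the sources used here, and served as an alternative.

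Control spots and feature outliers were dropped, spots of a probe averaged, and log2 intensity minus the log2 of each array's 75th percentile taken. Per gene the brightest probe was read (Python 3.11.15, pandas 2.3.3), and genes had to be well above background on at least 2 arrays. A probe not well above background on 1 array of a pair gave a bound against the lowest such value there. The 7438 probes with no gene name here were left out. Members were matched by the array's own gene names, whereas all genes were named through RefSeq accessions, symbols and synonyms. Limma (3.58.1, R 4.3.3) fitted genotype and treatment to all genes and was tested on simulated data. Differences of single pairs have no test, since each group held 1 array, and precision is limited by the number of arrays. Alternatives were normexp (offset 50), median, quantile and value-table scaling, other background filters, the mean over probes and other thresholds. Normexp values in the report are those fitted without spots carrying an outlier flag.

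Members, role groups, marker lists and tests were chosen with earlier results of these data known. Values on all 4 arrays are given for several sets of genes, save levels not well above background. These sets are the 10 members with the largest knockout minus wild type difference in both treatments, and the 4 at each end of each pair and of the response difference. Further sets are the transcription factors, the feedback inhibitors and Nlrc5. The rule held 1 further gene outside the members, which is not reported here. Of upstream and further interferon genes the 3 furthest apart in a pair could be named. Of the further list 1 gene, an alias of Irgm2, was dropped as a member. Several probes of 1 member differed in sign for Ddx58 (injured arrays), Rsad2 and Trim25 (sham arrays), Irf8, Ifih1, Ifit2, Parp14 and Tgtp1 (wild type response) and Irf1, Ifih1, Ddx58 and Trim25 (knockout response).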

Additional observations from a re-analysis of the deposited data

Results flagged for a closer look

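In 10 members the injury response had opposite directions in the knockout and the wild type, with the wild type value at least 2-fold, and in 8 of these both values also exceeded 1 SD of the repeated spots. The other two were Tgtp1, at 0.06 in knockout and -3.27 in wild type, and Gbp6, at 0.11 and, as a bound, -1.75. The differences between these responses were not tested, since each group held 1 array. Zbp1 stood at 0.51 in knockout and -1.63 in wild type, Ifit1 at 0.26 and -1.33, and Ifit3 at 0.55 and -1.49. Oas2 stood at 0.67 in knockout and -1.55 in wild type, and Oasl2 at 0.25 and -1.14. Among the GTPases, Gbp2 stood at 0.37 in knockout and -1.40 in wild type, Igtp at 0.48 and -1.39, and Iigp1 at 0.53 and -1.15. With normexp fitted without flagged spots, only Ifit3 and Igtp of these 8 stayed 2-fold lower in wild type, at -1.23 and -1.31. The wild type values were then -0.93 for Gbp2, -0.84 for Iigp1, -0.71 for Oasl2, -0.25 for Ifit1 and -0.03 for Oas2, and Zbp1 turned to 0.16.

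In 5 members the genotype difference, knockout minus wild type, had opposite directions in injured and sham kidneys. For Irf8, Trim25 and Ddx58 at least 1 of the values lay within 1 SD of the repeated spots or neither reached 2-fold. Of the other two, Isg20 stood at -2.77 in injured and 1.03 in sham kidneys, and Gbp2 at 1.61 in injured and -0.16 in sham kidneys, the last value being close to that SD of 0.159. These differences were not tested either.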

How the results depend on the processing

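No paired analysis was possible because each group held 1 array, and for the same reason no array could be left out of a group. Median and quantile scaling and the authors' value table left every count and median of the members within the limits set for a change. Those limits were a factor of 1.5 for a count and 1 SD of the repeated spots for a median. Counts could differ within them: with median scaling 19 members were 2-fold higher in knockout between the sham arrays, against 27, and 18 in both treatments, against 23. Normexp moved 11 of 25 counts and medians, and the 4-fold threshold 7 of 14 counts. Normexp was fitted on all spots and also without spots carrying an outlier flag, as some spots of the knockout injured array had a local background far above their signal. In that order the median of the members was 1.05 and 1.07 between the injured arrays, 0.89 and 0.89 between the sham arrays, and -0.062 and -0.061 for the wild type response, where 6 and 6 members were 2-fold lower. The median response difference was 0.25 on all spots, and 6 and 9 members reached 2-fold. On all spots 2 members were 2-fold higher in the knockout response, against 4046 of 15792 genes. Without flagged spots 15 members were 2-fold higher in knockout in both treatments. For that count and for the response difference, all genes were not counted under normexp. Zbp1 turned in the wild type response, at 0.16 in each. Limma called 97 and 139 genes for genotype and 4137 and 981 for injury. Without flagged spots 1 member was lower for genotype at an unadjusted p under 0.05. For injury 5 and 3 members were higher and 3 and 3 lower at an unadjusted p under 0.05. These were 2 and 1 with genes above background on all 4 arrays, 1 and 1 with no background filter, and 1 and 1 with an intensity trend. The cause was not tested.

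At 4-fold, 18 members were higher in knockout between the injured arrays, 2 between the sham arrays and 2 in both. All genes were not counted at 4-fold or at 1.5-fold, so the counts at these thresholds have no share beside them. In the wild type response 1 was higher and 4 were lower, and in the response difference 5 were higher and 1 was lower. At 1.5-fold, 4 members were higher in the wild type response, 7 in the knockout response and 2 in both. With the mean over probes the wild type median was -0.74, 1 member was 2-fold higher there, and 1 had a negative response difference of 2-fold. With each probe's own signal in place of bounds, an alternative chosen after seeing the data, that median was also -0.74. Median scaling shifted the median of all genes by -0.15 between the sham arrays, beside a median of 0.96 for the members, and turned the split of all genes 2-fold apart there to 390 higher and 751 lower, against 580 and 484. Dim signal on the wild type injured array limits what its low members can show.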

Other observations

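By the probe coordinates in the array files, the 46 members lie on 15 chromosomes. Of these, 9 lie on chromosome 11 (Irf1, Dhx58, Ifi35, Xaf1, Trim25 and the GTPases Igtp, Irgm1, Irgm2 and Tgtp1), and 8 on chromosome 5, among them every oligoadenylate synthetase gene of the list and Gbp6. Chromosome 16 holds 5 (Socs1, Mx1, Mx2, Rtp4 and Parp14), and Ifit1, Ifit2 and Ifit3 lie on chromosome 19.

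Neutrophil markers ran against the members between the injured arrays. Of 4 that passed, 3 were at least 2-fold lower in knockout, with a summed scaled signal of 3.38 in knockout and 12.5 in wild type injured kidneys, and 7.01 in knockout and 4.80 in wild type sham kidneys. Podocyte markers were at least 2-fold higher in knockout for 4 of 5 genes between the injured arrays and for 0 of 5 between the sham arrays.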
